A study of Mus musculus with 8 samples.

Results

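Transcripts that mark T lymphocytes were followed through 8 bulk RNA sequencing libraries of mouse alveolar macrophages. The set was a list of 33 genes, matched by symbol to the count table. Of these, 32 were found among 37310 rows, and all 32 passed the filter on low counts. Trbc1, a constant segment of the T cell receptor beta chain, had no symbol in the table and was read by its Ensembl ID for description only.

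All mice were wild type, and both the C57BL/6 mice used for isolating macrophages and the recipients were 8 weeks old at the start. Each group held 2 libraries, each labelled as a pool of 3 mice. exAM were alveolar macrophages of C57BL/6 mice expanded outside the body for 2 months and not sorted. texAM were expanded cells placed in the airways of C57Bl/6-Ly5.1 mice that were 2 months old, and recovered 4 months later. tAM were labelled as transplanted alveolar macrophages of C57BL/6 origin that also spent 4 months in vivo, with no culture named. HostAM were cells of the C57Bl/6-Ly5.1 strain. The labels do not say if their donors had been given cells or saline. The 3 lung groups were sorted from whole lung as live, single, SiglecF+ and CD11c+ cells, texAM and tAM by CD45.2 and HostAM by CD45.1. No gate on a T cell protein is named. The groups thus differ in the CD45 gate and strain as well as in history, and these cannot be told apart. Because RNA was pooled from sorted cells, more T cells and more RNA per T cell cannot be told apart either.

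T cells recognise antigen through a receptor whose variable chains are joined in a complex with the CD3 proteins. Most carry an alpha and a beta chain and use the coreceptor CD4 or CD8. A smaller lineage carries gamma and delta chains, and part of it settles in barrier tissues such as lung and skin and is poised to make IL17A. CD4+ cells are further divided into helper and regulatory subsets, and CD8+ cells into naive, memory and cytotoxic ones.

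Libraries held 6546272 to 9154128 counts. Levels are given as CPM, the usual scaling of counts for depth, here by effective (TMM) library size. Among the marker lists, that of alveolar macrophages had the highest sum in every library. Its 12 genes summed to 3907 to 4564 CPM in the lung libraries and to 5783 and 5032 CPM in exAM. Several hardly differed in raw counts between the 8 libraries, such as Chil3 (2135 to 2208) and Lpl (6620 to 7262). For such genes CPM falls as library size rises, and exAM libraries were the smallest. The cause was not tested. Others differed, among them Krt79 (13 and 8 counts in exAM, 1435 to 1793 in lung) and Marco (3034 and 3053, 1824 to 2224). Whether the sums measure macrophage content was not tested. The summed level of the 3 CD3 genes Cd3d, Cd3e and Cd3g was 116 and 93.7 CPM in texAM, 32.0 and 71.6 CPM in tAM, and 14.2 and 34.2 CPM in HostAM. In exAM it was 0. No library of texAM overlapped with one of tAM or HostAM, whereas tAM and HostAM overlapped.

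**Figure D1:**
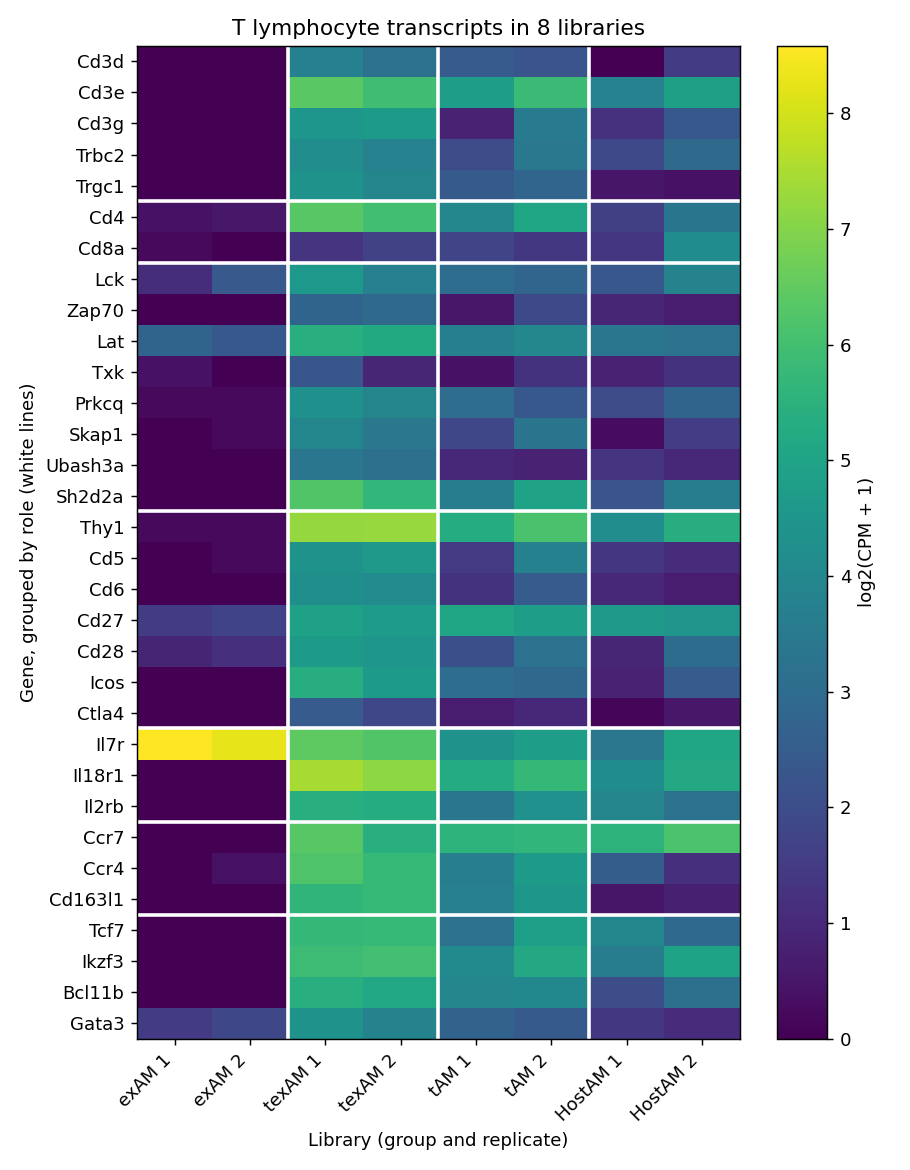
Heat map of the 32 genes (rows, grouped by role between white lines) in the 8 libraries (columns), as log2(CPM + 1). The exAM columns are dark except for Il7r and, more faintly, Lck, Lat, Cd27, Cd28 and Gata3, and the 2 texAM columns are the brightest of the lung libraries for most rows.

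The receptor complex was counted in the lung libraries and not in cultured cells. Cd3e, the epsilon chain of CD3 (ENSMUSG00000032093, GRCm38 chromosome 9, 44998740 to 45009627), stood at 82.1 and 60.8 CPM in texAM, 26.7 and 56.9 CPM in tAM, and 12.9 and 28.2 CPM in HostAM. It had 0 counts in both exAM libraries. The tAM and HostAM ranges overlapped, and both texAM libraries lay above all others. Cd3g, the gamma chain of CD3 (chromosome 9, 44969572 to 44980431), was at 21.7 and 24.6 CPM in texAM, 0.812 and 10.9 CPM in tAM, and 1.32 and 4.14 CPM in HostAM. Its tAM libraries thus differed more from each other than most members did. Cd3d, the delta chain (chromosome 9, 44981786 to 44987339), was at 12.3 and 8.21 CPM in texAM, 4.53 and 3.76 CPM in tAM, and 0 and 1.84 CPM in HostAM. One HostAM library, replicate 1, had no count of it.

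The 3 CD3 genes lie next to each other on chromosome 9. The 250 bases before their RefSeq start sites are shown because they encode chains of 1 complex, and those of Cd163l1 because its difference among the lung groups was the largest of the members. Capitals mark matches, on either strand, to any of 4 short motifs. The first is the ETS core AGGAAG. The second is the core of the TCF/LEF family, to which Tcf7 belongs, CTTTGA. The third is the GATA core, the family of Gata3, AGATAA. The last is the RUNX core TGTGGT. Sequences are RefSeq's on GRCm38.p6, 5′ to 3′ on the gene's strand.
Cd3d, chr9:44981536-44981785, plus strand: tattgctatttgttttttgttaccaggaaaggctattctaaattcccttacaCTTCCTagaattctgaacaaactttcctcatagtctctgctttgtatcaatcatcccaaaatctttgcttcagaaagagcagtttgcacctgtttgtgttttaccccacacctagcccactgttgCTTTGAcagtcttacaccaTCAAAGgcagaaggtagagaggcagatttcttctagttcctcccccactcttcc
Cd3e, chr9:45009612-45009861, minus strand: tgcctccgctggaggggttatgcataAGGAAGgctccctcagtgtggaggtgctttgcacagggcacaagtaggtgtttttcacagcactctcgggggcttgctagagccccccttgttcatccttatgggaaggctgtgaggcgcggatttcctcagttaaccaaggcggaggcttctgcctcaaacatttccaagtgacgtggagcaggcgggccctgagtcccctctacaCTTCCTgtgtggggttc
Cd3g, chr9:44980432-44980681, minus strand: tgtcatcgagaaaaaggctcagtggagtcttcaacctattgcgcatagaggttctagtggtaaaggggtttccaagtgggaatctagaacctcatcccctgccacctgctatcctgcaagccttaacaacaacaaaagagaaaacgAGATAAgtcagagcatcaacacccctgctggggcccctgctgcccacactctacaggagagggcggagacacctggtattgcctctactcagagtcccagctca
Cd163l1, chr7:140218017-140218266, plus strand: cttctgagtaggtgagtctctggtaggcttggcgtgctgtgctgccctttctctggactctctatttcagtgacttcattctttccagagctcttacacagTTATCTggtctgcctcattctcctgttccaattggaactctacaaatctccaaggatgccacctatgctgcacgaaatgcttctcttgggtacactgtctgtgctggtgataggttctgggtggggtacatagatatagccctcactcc

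Of the 32 members, 20 had an entry in the RefSeq promoter table, with 27 start sites in all. AGGAAG or its reverse complement lay in 14 of these 27 windows (51.9%) and in 29.5% of all 32851 windows of that length. CTTTGA lay in 5 (18.5% against 13.8%), AGATAA in 3 (11.1% against 9.99%) and TGTGGT in 3 (11.1% against 14.0%). A match describes these letters only, and several windows belong to 1 gene.

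Constant segments of the receptor chains differed in which group held them. Trbc2, a beta constant segment (chromosome 6, 41546730 to 41548352), stood at 17.5 and 13.0 CPM in texAM, 3.02 and 9.78 CPM in tAM, and 2.76 and 6.79 CPM in HostAM. Trgc1, a gamma constant segment (ENSMUSG00000076749, chromosome 13, 19214103 to 19217024), was at 20.3 and 14.0 CPM in texAM, 4.41 and 5.89 CPM in tAM, and 0.441 and 0.345 CPM in HostAM. The 3 lung groups did not overlap for Trgc1, while tAM and HostAM overlapped for Trbc2. HostAM held only 4 and 3 counts of Trgc1, so its folds over HostAM are uncertain in size. Trgc1 was 41.9-fold higher in texAM than in HostAM (log2 5.39 ± 0.61 SE, adjusted p = 0.0129). For tAM over HostAM its log2 difference was 3.66 ± 0.60 (adjusted p = 0.0714). Constant segments of 1 chain are near copies of each other, so counts of Trbc1 and Trbc2, and of Trgc1, Trgc2 and Trgc3, may have been split or lost in counting.

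To lessen that uncertainty, the segments were summed by chain. Gamma segments gave 347 and 220 counts in texAM, 62 and 72 in tAM, and 12 and 21 in HostAM. Beta segments, Trbc1 included, gave 219 and 148, 41 and 94, and 38 and 70. The gamma share of these counts was 61.3% (95% Wilson interval 57.2 to 65.2) and 59.8% (54.7 to 64.7) in texAM. In tAM it was 60.2% (50.5 to 69.1) and 43.4% (36.1 to 51.0), and in HostAM 24.0% (14.3 to 37.4) and 23.1% (15.6 to 32.7). Both HostAM libraries lay below all 4 libraries of transferred cells. The intervals cover counting error only, since reads without molecular identifiers are not independent molecules, and the shares were not tested between groups. Trac, the alpha constant segment, read by its Ensembl ID, was at 32.9 and 17.9 CPM in texAM, 6.04 and 10.5 CPM in tAM, and 2.98 and 11.1 CPM in HostAM, with 1 count in each exAM library. Alpha-beta receptor transcripts were thus counted in every lung library.

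**Figure D2:**
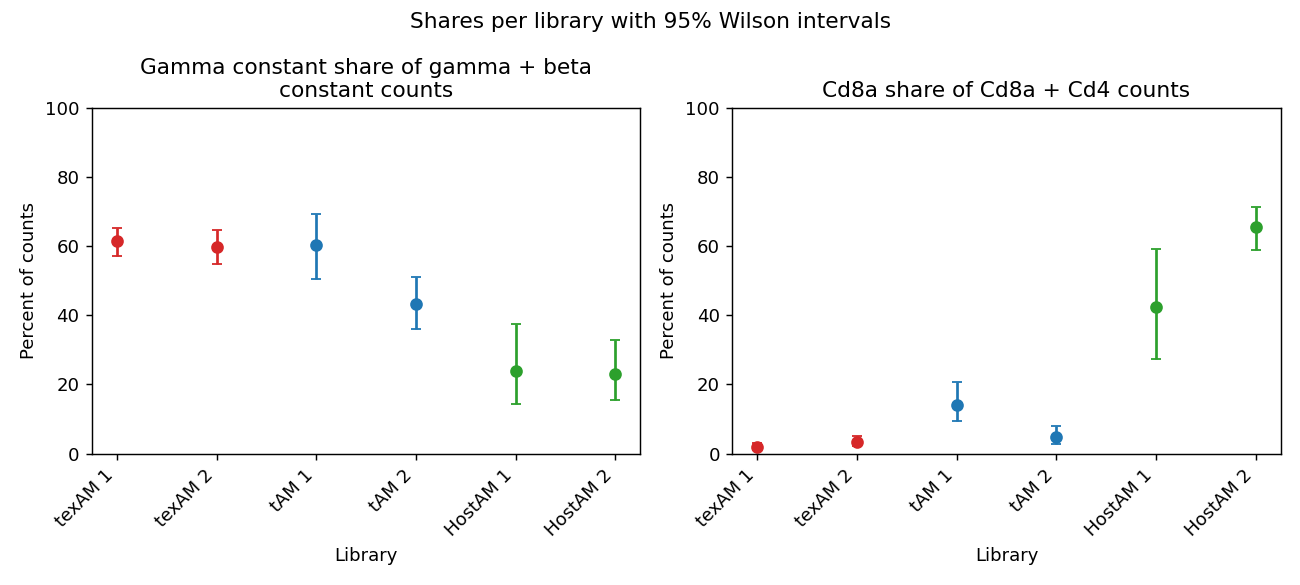
Left, share of gamma among gamma and beta constant segment counts, and right, share of Cd8a among Cd8a and Cd4 counts, in percent for each lung library with 95% Wilson intervals. The HostAM libraries sit lowest on the left (24.0% and 23.1%) and highest on the right (42.4% and 65.4%).

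By mean level the coreceptors ran in opposite orders, but for Cd8a the lung groups overlapped. Cd4, which binds MHC class II beside the receptor (chromosome 6, 124864692 to 124888221), was at 80.2 and 62.6 CPM in texAM, 14.7 and 32.7 CPM in tAM, 2.09 and 9.09 CPM in HostAM, and 0.343 and 0.463 CPM in exAM. The 4 groups did not overlap, and texAM was 12.8-fold higher than HostAM (log2 3.68 ± 0.56, adjusted p = 0.0307). Cd8a, which binds MHC class I (chromosome 6, 71373427 to 71379173), stood at 1.46 and 2.17 CPM in texAM, 2.44 and 1.63 CPM in tAM, and 1.54 and 17.2 CPM in HostAM. Only HostAM replicate 2 was high among these libraries, so the log2 difference of texAM from HostAM, -2.36 ± 0.98, did not pass (adjusted p = 0.344). Cd8a made up 1.79% and 3.35% of the Cd4 and Cd8a counts in texAM, 14.2% and 4.74% in tAM, and 42.4% and 65.4% in HostAM. Per kilobase of the longest annotated transcript, the mean level of Cd4 was 23.0 CPM per kb in texAM and that of Cd8a 0.580, while in HostAM they were 1.80 and 2.99.

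**Figure D3:**
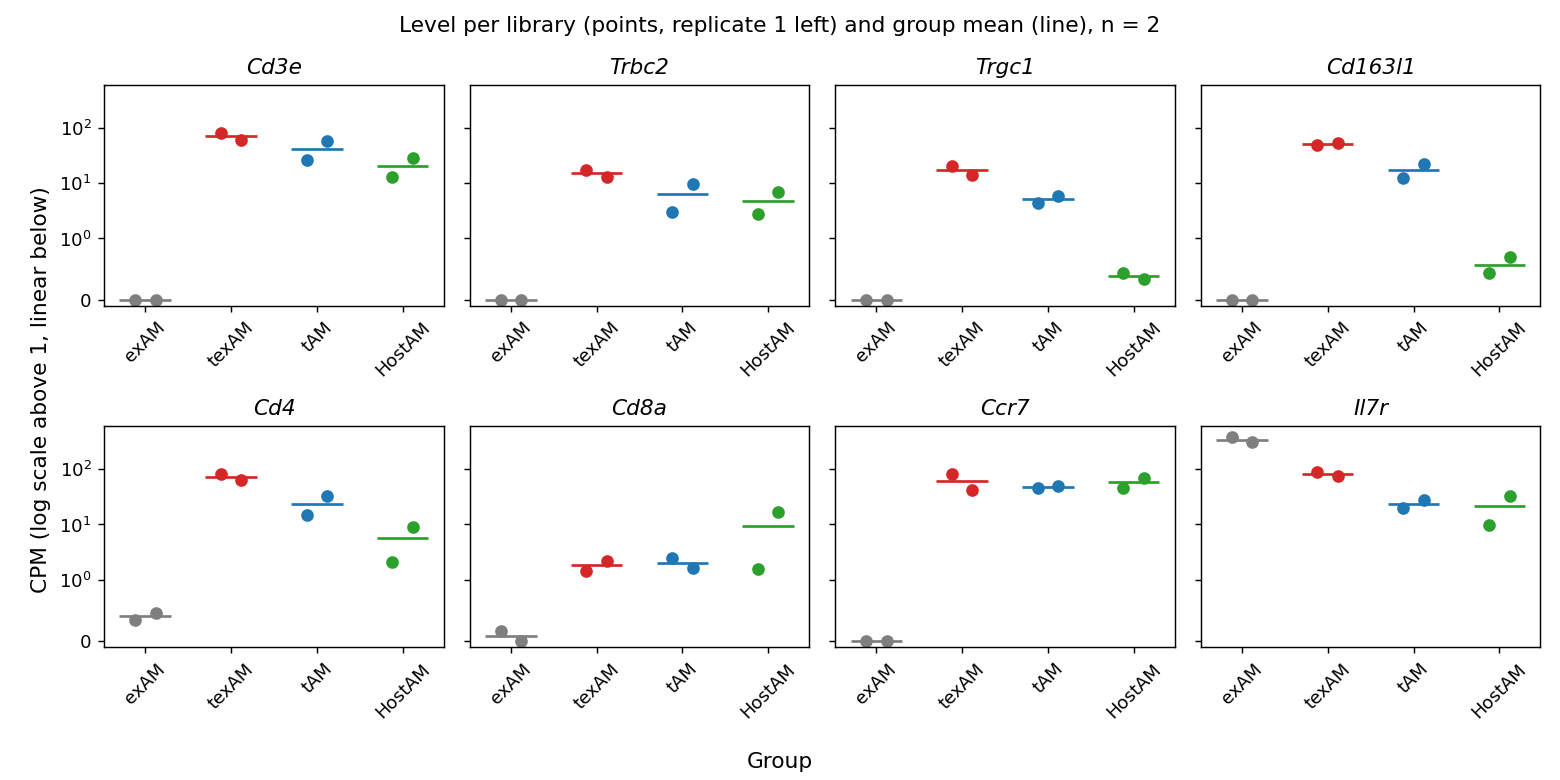
Level in CPM (log scale above 1, linear below) of 8 genes in each library (points, replicate 1 on the left) with the group mean (line, n = 2). Trgc1 and Cd163l1 are near the bottom in HostAM, Cd8a is raised in HostAM replicate 2 only, Ccr7 overlaps between the lung groups, and Il7r is highest in exAM.

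Of 8 signalling genes next to the receptor, 5 ran by mean level in the order texAM, tAM, HostAM. Lat, the adaptor that relays the receptor signal, was at 41.5 and 36.0 CPM in texAM, 12.1 and 14.7 CPM in tAM, 9.26 and 8.52 CPM in HostAM, and 5.83 and 4.17 CPM in exAM. It was 4.35-fold higher in texAM than in HostAM (log2 2.12 ± 0.29, adjusted p = 0.0202). Sh2d2a, a T cell adaptor that binds Lck, was at 74.5 and 50.8 CPM in texAM, 11.0 and 29.5 CPM in tAM, and 3.75 and 11.5 CPM in HostAM, with 0 counts in exAM (texAM over HostAM log2 3.04 ± 0.57, adjusted p = 0.0773). Both texAM libraries stood above the other lung libraries, and tAM replicate 1 fell inside the HostAM range. The kinase Zap70, which docks on phosphorylated CD3, was at 5.85 and 6.73 CPM in texAM, 0.464 and 2.76 CPM in tAM, and 0.882 and 0.576 CPM in HostAM. Ubash3a, a negative regulator of the receptor signal, was at 9.40 and 7.99 CPM in texAM and between 0.752 and 1.43 CPM in the other lung libraries. Lck, the kinase that starts the signal, broke the order, with 23.1 and 12.3 CPM in texAM, 7.43 and 6.02 CPM in tAM, 4.08 and 13.4 CPM in HostAM, and 1.20 and 4.32 CPM in exAM. Its HostAM replicate 2 lay inside the texAM range. Prkcq, the protein kinase C of the T cell synapse, was at 18.7 and 13.9 CPM in texAM, 7.31 and 4.14 CPM in tAM, and 2.98 and 5.76 CPM in HostAM. The adaptor Skap1 was at 14.4 and 9.70 CPM in texAM, 2.55 and 8.90 CPM in tAM, and 0.220 and 1.96 CPM in HostAM. Both were highest in texAM, and the tAM libraries of Skap1 lay above both of HostAM. The Tec kinase Txk was at 3.86 and 0.913 CPM in texAM, 0.348 and 1.38 CPM in tAM, and 0.772 and 1.38 CPM in HostAM, and was the one member whose texAM libraries differed over 2-fold.

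Among surface and costimulatory proteins, 2 of 7 members were higher in texAM than in HostAM (0.248% of all tested genes were called higher). Thy1, a surface glycoprotein of T cells (chromosome 9, 44043384 to 44048579), was at 148 and 151 CPM in texAM, 39.1 and 68.7 CPM in tAM, 17.6 and 39.4 CPM in HostAM, and 0.172 and 0.154 CPM in exAM. It was 5.26-fold higher in texAM than in HostAM (log2 2.40 ± 0.35, adjusted p = 0.0253), and tAM replicate 1 fell just inside the HostAM range. Cd6, a scavenger-type receptor that tunes activation, was at 18.5 and 16.5 CPM in texAM, 1.39 and 4.64 CPM in tAM, and 0.992 and 0.576 CPM in HostAM, 21.9-fold higher in texAM than in HostAM (log2 4.45 ± 0.71, adjusted p = 0.0433). Its close relative Cd5 was at 20.5 and 23.3 CPM in texAM, 1.74 and 12.8 CPM in tAM, and 1.54 and 1.15 CPM in HostAM (texAM over HostAM adjusted p = 0.0805). The tAM libraries of Cd5 thus sat one near HostAM and one nearer texAM. Icos, a costimulator of activated helper cells, was at 40.1 and 24.6 CPM in texAM, 7.31 and 6.27 CPM in tAM, and 0.772 and 4.60 CPM in HostAM (adjusted p = 0.0731). Cd28, the main costimulator of naive cells, was at 24.6 and 21.9 CPM in texAM, 3.25 and 8.40 CPM in tAM, and 0.882 and 7.25 CPM in HostAM. Its inhibitory counterpart Ctla4 was at 4.49 and 2.51 CPM in texAM, 0.580 and 1.00 CPM in tAM, and 0.110 and 0.460 CPM in HostAM. For both, texAM lay above every other lung library. Cd27, a TNF receptor family member, did not follow CD3. It stood at 29.0 and 25.2 CPM in texAM, 32.7 and 26.7 CPM in tAM, and 24.0 and 21.3 CPM in HostAM, and was 1.89 and 2.32 CPM in exAM.

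Cytokine receptors held the one member that was higher in culture. Il18r1, the ligand-binding chain of the IL18 receptor, was at 175 and 138 CPM in texAM, 38.1 and 51.3 CPM in tAM, and 17.1 and 35.3 CPM in HostAM, with 0 counts in exAM. The 3 lung groups did not overlap, and texAM was 5.97-fold higher than HostAM (log2 2.58 ± 0.32, adjusted p = 0.0179). Il2rb, a chain of the receptors for IL2 and IL15, was at 40.9 and 38.9 CPM in texAM, 9.40 and 19.2 CPM in tAM, and 14.1 and 8.17 CPM in HostAM. Il7r, the receptor that keeps naive and memory T cells alive, was at 382 and 306 CPM in exAM, 87.2 and 75.2 CPM in texAM, 20.1 and 27.2 CPM in tAM, and 9.59 and 33.2 CPM in HostAM. It was 4.23-fold lower in texAM than in exAM (adjusted p = 0.00139), 14.6-fold lower in tAM (adjusted p = 4.91e-05) and 16.1-fold lower in HostAM (adjusted p = 4.12e-05). The exAM libraries, in which CD3 was at 0, thus held the most Il7r.

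Chemokine and scavenger receptors held the largest difference among the lung groups and a gene whose lung groups overlapped. Cd163l1, a scavenger receptor found on gamma-delta T cells (ENSMUSG00000025461, chromosome 7, 140218267 to 140231145), was at 48.2 and 52.9 CPM in texAM, 12.3 and 22.6 CPM in tAM, and 0.441 and 0.691 CPM in HostAM. The groups did not overlap. HostAM held only 4 and 6 counts of Cd163l1, so its folds over HostAM are uncertain in size. It was 87.4-fold higher in texAM than in HostAM (log2 6.45 ± 0.48, adjusted p = 0.0031) and higher in tAM than in HostAM (log2 4.91 ± 0.48, adjusted p = 0.0109). Ccr4, a homing receptor of skin and lung T cells, was at 73.3 and 53.3 CPM in texAM, 11.6 and 24.8 CPM in tAM, and 4.74 and 1.27 CPM in HostAM, 20.9-fold higher in texAM than in HostAM (log2 4.38 ± 0.58, adjusted p = 0.0179). Ccr7, which guides naive T cells and migrating dendritic cells to lymph nodes, was at 80.8 and 41.6 CPM in texAM, 46.2 and 48.9 CPM in tAM, 45.4 and 69.8 CPM in HostAM, and 0 in exAM. Its lung groups overlapped. Fscn1, a marker of migrating dendritic cells, was likewise counted in every lung library, with 2 and 3 counts in exAM. The 10 dendritic cell markers summed to 441 and 425 CPM in texAM, 315 and 402 CPM in tAM, and 369 and 565 CPM in HostAM. In exAM, where Ccr7 was at 0, they summed to 139 and 107 CPM. Ccl22 and Ccl17 gave 199 and 78.7 CPM of the sum in texAM replicate 1. Clec9a, at 64.5 and 48.6 CPM in exAM, was higher there than in any lung library. The part of dendritic cells in the level of Ccr7 was not tested.

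Of the 4 transcription factors, 2 were higher in texAM than in HostAM, beside 0.248% of all tested genes. Bcl11b, which fixes T cell identity, was at 41.2 and 34.8 CPM in texAM, 13.9 and 15.2 CPM in tAM, and 3.09 and 8.06 CPM in HostAM (log2 2.77 ± 0.44, adjusted p = 0.043). Gata3, the factor of type 2 helper cells and of T cell development, was at 20.2 and 13.5 CPM in texAM, 5.57 and 4.39 CPM in tAM, 1.65 and 1.15 CPM in HostAM, and 1.89 and 2.62 CPM in exAM (log2 3.57 ± 0.50, adjusted p = 0.0231). Neither overlapped among the lung groups, and Gata3 in HostAM was below exAM. Tcf7, the factor of naive and memory T cells, was at 51.0 and 52.8 CPM in texAM, 8.36 and 27.5 CPM in tAM, and 14.4 and 6.56 CPM in HostAM (adjusted p = 0.121). Ikzf3, a lymphoid zinc finger factor, was at 58.7 and 63.4 CPM in texAM, 16.2 and 35.2 CPM in tAM, and 11.0 and 30.7 CPM in HostAM (adjusted p = 0.211). Both had 0 counts in exAM.

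Against cultured cells most members were higher in each lung group. Of the 32 members, 30 were higher and 1 lower in texAM than in exAM (43.7% of all tested genes were called, 23.2% higher and 20.5% lower). In tAM 28 were higher and 1 lower (44.7% of all tested genes, 23.2% higher and 21.5% lower). In HostAM 22 were higher and 1 lower (44.1%, 23.3% higher and 20.9% lower). The lower one was Il7r each time. Both libraries lay above both exAM libraries for 31 members in texAM (41.8% of all tested genes) and 31 in tAM (40.4%), and below them for Il7r in each (35.6% and 36%). In HostAM 27 lay above (38.4%) and 2, Il7r and Gata3, below (35.3%). These comparisons share the exAM libraries and are not independent. The members not called were Txk in texAM, then Txk, Lck and Gata3 in tAM, and these 3 with Cd3d, Lat, Skap1, Cd5, Cd28 and Ctla4 in HostAM. In exAM 18 members had 0 counts in both libraries, 8 had 1 to 10 counts over both and 6 had more. Against 3 counts over the exAM group, Cd3e was at least 295-fold higher in texAM, at least 169-fold higher in tAM and at least 83.6-fold higher in HostAM. Il18r1 was at least 645-fold, 182-fold and 107-fold higher. The median log2 difference of the members was 9.26, 7.17 and 5.65 as fitted in texAM, tAM and HostAM, and 6.54, 4.74 and 3.49 with the 18 members set to that bound, beside 0.11, 0.09 and 0.08 for all tested genes. The exAM cells had not been sorted from lung, so culture and source cannot be told apart. Lung epithelial markers, too, summed to 380 to 693 CPM in the lung libraries and to 7.37 and 3.71 CPM in exAM, and their part in the difference was not tested.

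Among the lung groups, 10 of 32 members (31.2%) were higher in texAM than in HostAM and none was lower, beside 0.33% of all 14537 tested genes called in either direction with 0.248% called higher and 0.0825% lower. The members were chosen with earlier results of these data known. This share, like those of the other comparisons, is thus not independent of the data. The 10 were Trgc1, Cd4, Lat, Thy1, Cd6, Il18r1, Ccr4, Cd163l1, Bcl11b and Gata3. The median log2 difference was 2.67, beside 0.00 for all tested genes, and both texAM libraries lay above both HostAM libraries for 28 members (21.8% of all tested genes) and below for none (21%). Without texAM replicate 1 or replicate 2 only Cd163l1 was called, without HostAM replicate 1 it was 3 members, and without HostAM replicate 2 it was 14.

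For tAM against HostAM, 1 of 32 members, Cd163l1, was higher (0.0413% of all tested genes called, 0.0206% higher and 0.0206% lower). At an unadjusted p under 0.05 there were 14 members (10% of all tested genes), and the median log2 difference was 0.97. Both tAM libraries lay above both HostAM libraries for 15 members (19.1% of all tested genes) and below for none (18.7%). The call of Cd163l1 was lost without tAM replicate 2 (adjusted p = 0.096), without HostAM replicate 2 (adjusted p = 0.0587) and in a fit of the 4 libraries alone (adjusted p = 0.0555), with a log2 difference of 4.41 to 5.29 over all alternatives.

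For texAM against tAM no member was called by edgeR's quasi-likelihood test (0.00688% of all tested genes, 1 gene, was). At an unadjusted p under 0.05 there were 20 members (7.84% of all tested genes). DESeq2's Wald test called 6, Lat, Thy1, Icos, Il18r1, Ccr4 and Cd163l1, beside 0.547% of all genes to which it gave an adjusted p. Both texAM libraries lay above both tAM libraries for 28 members (21.9% of all tested genes) and below for none (20.2%), and the median log2 difference was 1.54. The smallest adjusted p was that of Il18r1 (log2 1.81 ± 0.31, adjusted p = 0.224). The exceptions to the order were Cd8a, Cd27, Ccr7 and Txk, whose libraries overlapped.

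**Figure D4:**
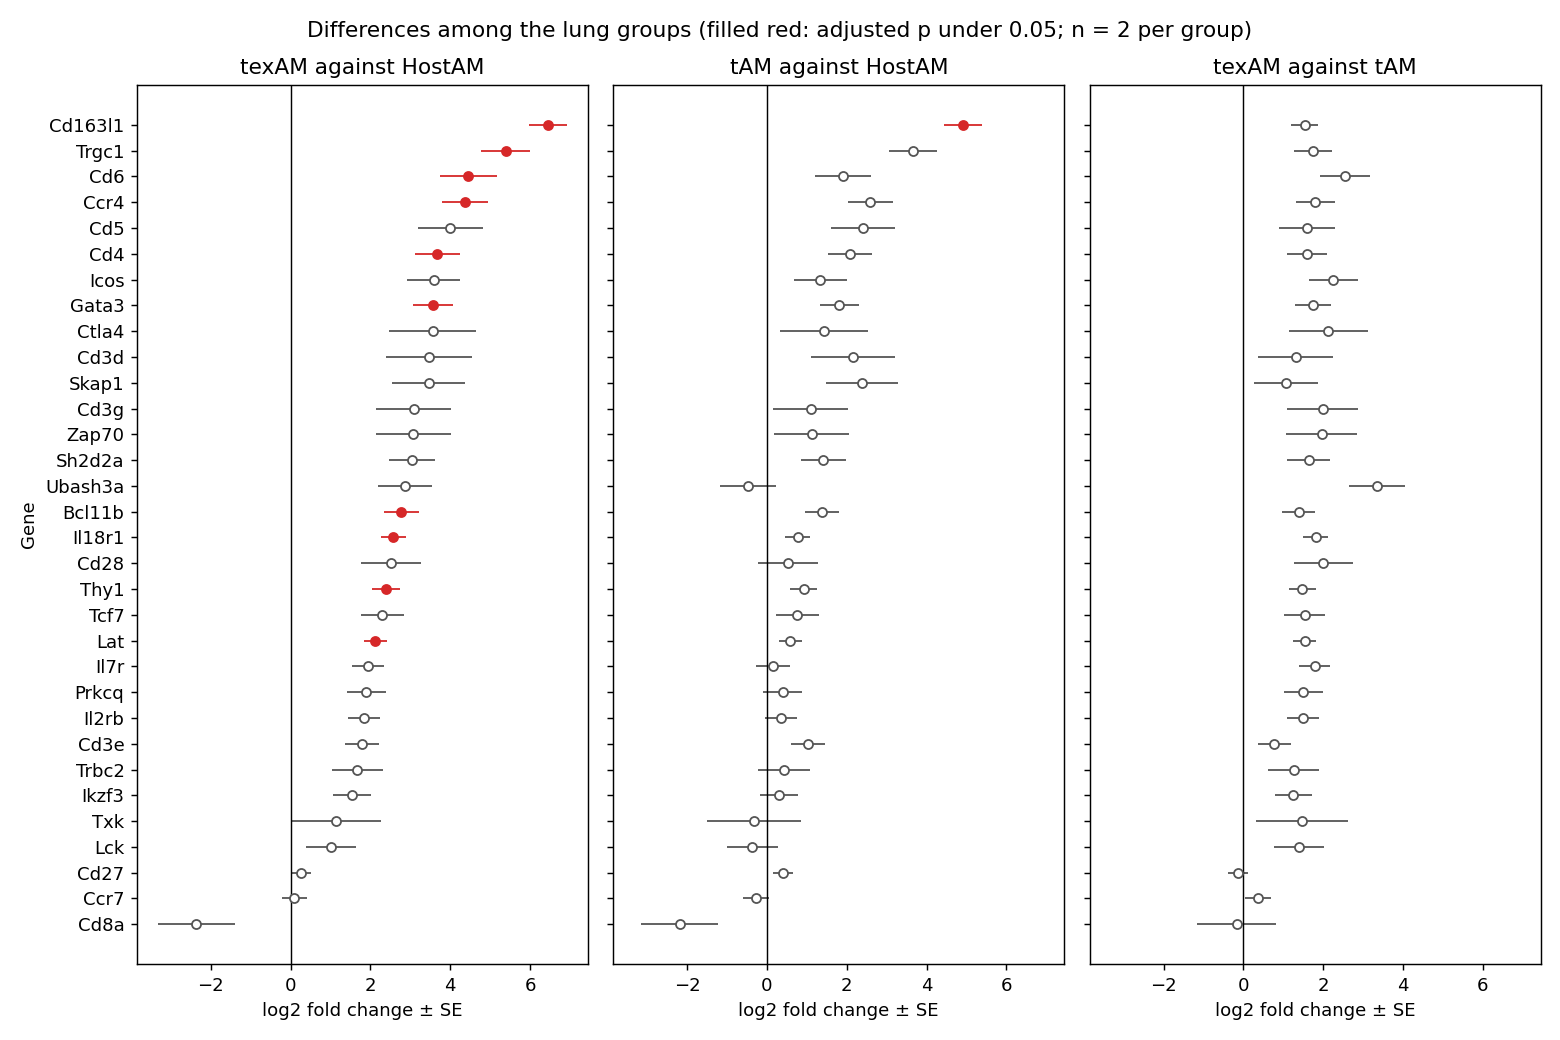
Log2 fold change with its SE for the 32 genes (rows) in 3 comparisons of lung groups (panels), n = 2 per group. Filled red points passed an adjusted p of 0.05, 10 for texAM against HostAM, 1 for tAM against HostAM and 0 for texAM against tAM, and Cd8a lies well to the left of 0 in both panels against HostAM.

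By mean level, 26 members ran in the order texAM, tAM, HostAM. Lck, Txk, Ubash3a and Ccr7 ran texAM, HostAM, tAM. Cd27 was led by tAM and Cd8a by HostAM. In 29 members the highest library was one of texAM, replicate 1 in 22 and replicate 2 in 7. The libraries of 1 group also differed. In tAM 24 members were higher in replicate 2, with a median ratio of replicate 2 to 1 of 1.80 and a range of 0.566 to 13.4, the highest being Cd3g. In HostAM 21 were higher in replicate 2, with a median of 2.07 over the 31 members with a count in replicate 1 and a highest value of 11.1 for Cd8a. In texAM 8 were higher in replicate 2, with a median of 0.818. Members differing over 2-fold between replicates numbered 15 in tAM, 18 of those 31 in HostAM and 1 in texAM.

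How closely a gene kept to the CD3 level was measured as the ratio of its CPM to the summed CPM of Cd3d, Cd3e and Cd3g, the highest of the 6 lung libraries divided by the lowest. A gene at one level in every lung library would give 8.17. Of the 20 members with at least 10 counts in each lung library, 8 gave under 3. These were Cd3e (1.40, itself part of the sum), Thy1 (1.68), Ikzf3 (1.83), Bcl11b (2.05), Il18r1 (2.10), Trbc2 (2.11), Sh2d2a (2.44) and Il7r (2.55). The loosest were Cd27 (6.76), Ccr7 (7.18), Cd5 (7.38), Ccr4 (17.0) and Cd8a (39.8). Among 509 other genes with such counts and an exAM mean under 0.1 of their lung mean, 26 (5.11%) gave under 3. The 10 closest were F2r (1.75), Ppp1r16b (1.75), Satb1 (1.88), Klrk1 (1.90), H2-Q6 (1.90), Adam19 (1.92), the unnamed ENSMUSG00000091875 (1.92), Camk4 (1.97), Ets1 (2.05) and Smad3 (2.06). H2-Q6 belongs to a family of near copies, so its counts are uncertain.

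Lists of subset genes were set beside the members. Genes named from them beyond the 4 most abundant of a list, and those not at 0, were chosen after their values were seen. Of 11 tested genes of IL17-producing gamma-delta T cells, 11 were higher in texAM than in exAM, 8 in tAM and 5 in HostAM (23.2%, 23.2% and 23.3% of all tested genes were called higher), but none was called between lung groups, and the list's median for texAM against HostAM was 3.10. Blk, a kinase of these cells and of B cells, was at 9.40 and 7.53 CPM in texAM, 1.86 and 2.01 CPM in tAM, and 0 and 0.230 CPM in HostAM (texAM over HostAM adjusted p = 0.0507). Il23r, the receptor for IL23, was at 5.12 and 7.76 CPM in texAM and at most 0.878 CPM in the other lung libraries. Sox13, a factor of the lineage, was at 13.8 and 9.47 CPM in texAM, 1.04 and 7.27 CPM in tAM, and 1.43 and 0.345 CPM in HostAM. The cytokine genes themselves were scarcely counted. Il17a had at most 4 counts in any library, and Il17f had 0 in all 8.

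Other subset lists split by library. Of 6 tested genes of cytotoxic and type 1 cells, none was called between lung groups, and HostAM replicate 2 stood apart. The list summed to 70.0 CPM there, 8.49 CPM in HostAM replicate 1 and 13.2 to 27.0 CPM in the libraries of transferred cells. In HostAM replicate 2 Cd8b1, the second chain of CD8, had 63 counts, the granule gene Nkg7 112, Gzmk 42 and the chemokine Ccl5 323, while HostAM replicate 1 had 2, 2, 1 and 45. Ccl5 alone gave 37.2 CPM of the sum in replicate 2. Prf1 did not follow, with 11 counts in HostAM replicate 2, 21 in replicate 1 and 24 to 50 in the libraries of transferred cells. Cxcr3 had 1 count in HostAM replicate 2 and 3 to 20 in the libraries of transferred cells. Dendritic cell genes such as Xcr1 (137 against 19 counts) and Flt3 (259 against 78) were also higher in HostAM replicate 2 than in replicate 1. Of that list only Cd209a went the other way, with 11 against 21 counts. The part of dendritic cells in the level of Cd8a was not tested. Ifng had 0 counts in all 8 libraries and Tbx21, the type 1 factor, at most 4. Of 5 tested genes of type 2 helper cells and innate cells, Rora alone was called for texAM against HostAM, beside 0.33% of all tested genes (1.87-fold, adjusted p = 0.0179), at 273 and 233 CPM against 130 and 140 CPM, but it also stood at 201 and 232 CPM in exAM. Il5 and Il13 had 0 counts throughout and Il4 had 1. Among 6 regulatory T cell genes none was called between lung groups. Il2ra, the high-affinity IL2 receptor chain, was at 147 and 104 CPM in texAM, 27.7 and 54.0 CPM in tAM, and 6.17 and 27.4 CPM in HostAM. Foxp3, the defining factor, was at 9.61 and 2.17 CPM in texAM, 0.812 and 4.64 CPM in tAM, 0.992 and 2.53 CPM in HostAM, and 0.858 and 1.85 CPM in exAM, so its lung groups overlapped, while both texAM libraries lay above both exAM libraries.

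Of 16 further pan-T genes tested, none was called between tAM and HostAM or between texAM and tAM. The 4 most abundant of that list were counted in every lung library. Cd2 stood at 195 and 208 CPM in texAM, 217 and 230 CPM in tAM, and 213 and 212 CPM in HostAM. It was also at 32.8 and 61.3 CPM in exAM, where CD3 was at 0. Its raw counts ran from 1826 to 1933 over the lung libraries, while summed CD3 counts ran from 129 to 1112. Its level was thus not a measure of T cells here, and the cause was not tested. Grap2, Slamf6 and Rhoh spanned 34.4 to 57.0, 23.4 to 44.4 and 17.6 to 38.6 CPM over the lung libraries. Of 8 natural killer cell genes 2 were tested, and Ncr1, the defining receptor, had at most 4 counts. Of 10 B cell genes 6 were tested and none was called between lung groups. Pax5, the B cell factor, had 37 counts in HostAM replicate 1 and at most 4 elsewhere. Eosinophils also carry SiglecF, and their genes Epx, Prg2 and Il5ra had at most 3 counts in any library and Ccr3 at most 7. With neutrophil genes the list of 8 summed to 229 and 171 CPM in texAM, 138 and 140 CPM in tAM, 112 and 115 CPM in HostAM, and 288 and 164 CPM in exAM, and none of its 3 tested genes was called between lung groups. Of the neutrophil genes, S100a9 had 619 and 226 counts in texAM and Retnlg 40 and 1.

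**Figure D5:**
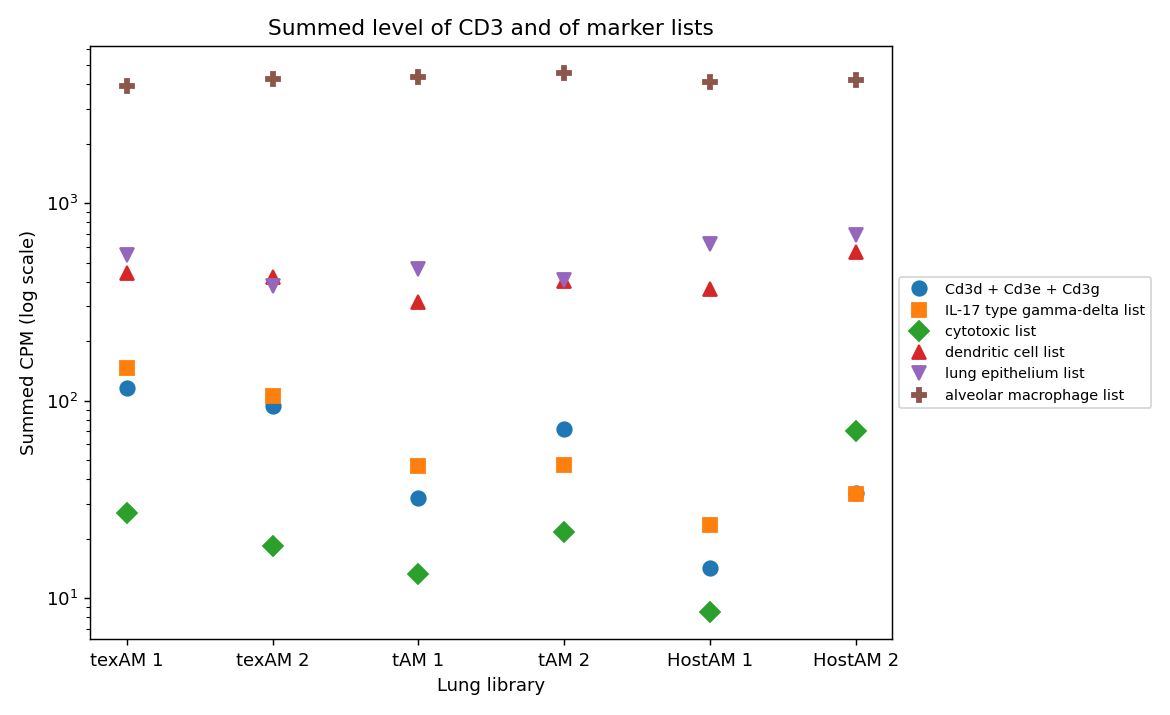
Summed CPM (log scale) of the 3 CD3 genes and of 5 marker lists in each lung library. The CD3 and gamma-delta points are highest in texAM, the cytotoxic point is highest in HostAM replicate 2 at 70.0 CPM, and the alveolar macrophage points stay between 3907 and 4564 CPM. Raw counts of several macrophage genes hardly differed between libraries, and whether this range measures macrophage content was not tested.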

How the data were processed

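The authors deposited raw counts of reads per Ensembl gene for 8 libraries. The submitters' processing notes list Bowtie, HTSeq 0.6.1 and R 3.3, with mm10 (GRCm38) as the build, but no parameters, and strand use is not given in the sources used here. RNA was amplified from small inputs, per the labels' protocols, so replicate spread includes amplification. The texAM columns were abbreviated as teAM. Genes were filtered by filterByExpr (minimum 10 counts), leaving 14537, scaled by TMM and fitted in edgeR 4.0.16 (R 4.3.3, limma 3.58.1) by a robust quasi-likelihood model over all 8 libraries, 1 coefficient per group, 4 residual degrees of freedom. Calls for the 6 pairs of groups needed p under 0.05 after Benjamini-Hochberg adjustment across the whole table. SE is the log2 fold change over the square root of F. The code was tested on simulated counts. Positions and transcript lengths are from GENCODE M21 (GRCm38). In it exons of other genes overlap those of Cd3e, Skap1 and Gata3, and microRNAs lie within Lck, Lat and Cd27, which can move reads between them. The members and lists were chosen with earlier results of these data known. All members with 10 or more counts in 1 library were named, and from other lists the most abundant and the defining genes. Of the closest genes to CD3, 10 were named by rule. Alternatives were another filter, scaling, test (DESeq2 1.42.0), block, subset of libraries, and each library left out. Whether pools within a group came from separate experiments is not stated, so p-values measure the spread between these libraries. Results for a few genes of the comparison lists are not reported here.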

Additional observations from a re-analysis of the deposited data

How the results depend on the processing

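With 2 libraries per group the counts of called members among lung groups moved with the processing. Without a filter on low counts 17 members were called for texAM against tAM, 27 (26 higher and 1 lower) for texAM against HostAM and 11 for tAM against HostAM, against 0, 10 and 1, while calls over all genes went from 1, 48 and 6 to 238, 694 and 425. The cause was not tested. DESeq2's Wald test called 6, 20 and 3 members, and 73, 382 and 187 genes over all. In fits of the 4 libraries compared, texAM against tAM gave 2 (Il7r and Il18r1) and tAM against HostAM 0. Leaving out each library in turn gave 0 to 2 members for texAM against tAM (2 without HostAM replicate 1 or 2), 1 to 14 for texAM against HostAM and 0 to 1 for tAM against HostAM (0 without tAM replicate 2 or HostAM replicate 2). A library left alone in its group was assumed to vary like the other groups. The same gave 29 to 31 for texAM, 23 to 29 for tAM and 16 to 24 for HostAM against exAM. With a minimum of 50 counts texAM against HostAM gave 14 of 29 tested members, and over all genes 106. With the replicate number as a block 8 members were called for texAM against HostAM, 0 for texAM against tAM and 1 for tAM against HostAM. Deviations of same-numbered libraries correlated at -0.0613 to 0.00892 over all tested genes, so no pairing by number showed over the whole table. Shared handling that moves only some genes was not tested. Of 2839 gene values under the alternatives 89 lost a call, 106 gained one and 29 changed sign, none of them called in either fit. Zap70, Txk and Ctla4 stood under 7 CPM in every library, and whether depth limited their calls was not tested.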

Other observations

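Variable segments of the receptor genes gave few counts, and their groups differed by chain. Those of the gamma locus summed to 113 and 85 counts in texAM, 15 and 38 in tAM, 9 and 9 in HostAM, and 0 in exAM. Trgv6, a segment of gamma-delta cells that arise before birth, had 47 and 31 counts in texAM, 6 and 8 in tAM, and 0 in both HostAM libraries. Trdv4, its usual delta partner, had 43 and 15 counts in texAM, 4 and 1 in tAM, and 0 in both HostAM libraries. Trgv7 was the one gamma segment with more counts in a tAM library (21 in replicate 2) than in texAM (8 and 12). Beta variable segments summed to 56 and 40 counts in texAM, 7 and 2 in tAM, and 12 and 6 in HostAM, with counts in 10 of 18 rows. Alpha segments summed to at most 19 counts in any library, in HostAM replicate 2. These genes were chosen after their values were seen.

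Genes of naive and recirculating T cells were mixed. Of 6 tested, 1 was higher in texAM than in HostAM, beside 0.248% of all tested genes, the chromatin organiser Satb1 (5.97-fold, adjusted p = 0.0233), at 67.1 and 51.6 CPM against 8.71 and 11.2 CPM. S1pr1, which lets T cells leave tissues, was at 24.3 and 28.6 CPM in texAM, 8.59 and 15.2 CPM in tAM, and 1.10 and 5.06 CPM in HostAM. Lef1 was at 11.3 CPM in HostAM replicate 2 against 1.98 CPM in replicate 1.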
